A study of Mus musculus with 16 samples.

Results

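Basement membrane and short-chain collagens are the collagens that form sheets and nets in place of thick fibrils, and 7 of their genes are described here: Col4a1, Col4a2, Col4a5, Col8a1, Col8a2, Col15a1 and Col18a1. They were chosen by name, as genes of collagen types IV, VIII, XV and XVIII, and make up 7 of the 52636 genes in the count table. All 7 had enough counts to be tested. The measurement was RNA sequencing of the whole descending thoracic aorta of mice, in 16 libraries. C57BL/6J and 129S6/SvEvTac, both inbred strains, were each studied as controls and with AngII (angiotensin II, the peptide hormone that raises blood pressure), giving 4 groups of 4 libraries. They are called here the C57BL/6J controls, the C57BL/6J AngII libraries, the 129S6/SvEvTac controls and the 129S6/SvEvTac AngII libraries. AngII dose and duration and the age of the mice are not given in the sources read, and the labels name no other allele or agent. The labels do not say that each library came from a separate animal. A p-value here therefore sets a difference against the spread between these libraries, which may be technical.

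A basement membrane is a thin sheet of matrix that lies under endothelial cells and around each smooth muscle cell of the aortic wall. Its framework is a net of type IV collagen, tied by nidogens and perlecan to a separate net of laminins, and cells hold on to it through integrins and other receptors. Types XV and XVIII collagen carry heparan or chondroitin sulphate chains and sit at the border between the basement membrane and the fibrillar matrix, where fragments of their C-terminal ends can be released. Type VIII collagen is a short-chain collagen that forms lattices of its own and is made in vessel walls under repair.

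Col4a1 and Col4a2 lie head to head on chromosome 8 and are read in opposite directions from a shared stretch of DNA. In the GENCODE M21 annotation of the mouse genome build GRCm38, their first exons share 22 bases, at chr8:11312805-11312826, which are shown on the plus strand. A read that lay only on these bases could not be assigned to either gene unless counting uses strand. The shared bases are 0.295% of the exon length of Col4a1 and 0.332% of that of Col4a2. Col4a2 also shares 43 exon bases (0.65%) with Gm15419, annotated as antisense.
Col4a1 and Col4a2 shared first exon: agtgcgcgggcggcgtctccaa

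Col8a1 and Col8a2, whose protein chains form type VIII collagen, had the largest AngII fold changes of the members in C57BL/6J, and the bases just upstream of their start sites are therefore shown. The sequences are the RefSeq promoters of build GRCm38.p6, written 5′ to 3′ on the strand of the gene. The Col8a1 window is chr16:57754738-57754987 on the minus strand (250 bases) and the Col8a2 window is chr4:126286544-126286792 on the plus strand (249 bases). Capitals mark GC boxes (GGGCGG on either strand) and the SMAD element (CAGAC on either strand).
Col8a1: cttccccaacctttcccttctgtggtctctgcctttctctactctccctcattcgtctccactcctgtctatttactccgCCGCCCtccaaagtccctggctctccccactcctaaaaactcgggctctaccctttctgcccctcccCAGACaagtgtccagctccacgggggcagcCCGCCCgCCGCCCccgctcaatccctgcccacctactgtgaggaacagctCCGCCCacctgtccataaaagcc
Col8a2: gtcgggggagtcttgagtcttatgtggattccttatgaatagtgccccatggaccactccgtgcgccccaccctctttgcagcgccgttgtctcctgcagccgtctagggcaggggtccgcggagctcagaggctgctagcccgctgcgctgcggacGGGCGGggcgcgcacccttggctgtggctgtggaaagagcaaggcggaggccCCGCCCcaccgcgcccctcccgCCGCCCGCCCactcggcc
Each window held 4 GC boxes, and the last 2 in Col8a2 overlap each other. The Col8a1 window held 1 SMAD element and the Col8a2 window none. Over the 250 upstream bases of 32851 mouse promoters, 32.7% held at least 1 GC box and 42.2% at least 1 SMAD element, so these matches describe the windows and mark no site of binding. Over the full 250 upstream bases, which for Col8a2 hold 1 base more than is printed, GC content was 60.8% with 10 CpG for Col8a1 and 70% with 24 CpG for Col8a2, against medians of 52.4% and 6 CpG over all promoters. None of the 8 member windows searched (Col18a1 has 2 annotated start sites) held a TATA box (TATAAA, in 12.4% of all promoters), an AP-1 element (TGANTCA, 6.75%) or a CArG box (1.47%).

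Levels are given in CPM, read counts scaled to a common library total, and levels of different genes are compared only after division by exon length, as CPM per kilobase. A gene is called changed where its adjusted p from edgeR's quasi-likelihood test, corrected by Benjamini-Hochberg over all 17125 genes tested, was below 0.05, and fold changes are log2 values with their standard error (SE). Libraries held 42116120 to 121573945 counts, and the lowest member value in any library was 9.88 CPM, of Col8a1 in a C57BL/6J control, so counting error was smaller than the spread between libraries.

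With AngII the cell type markers of the libraries moved too, mainly in C57BL/6J. Over all tested genes, 21.8% were called higher and 17.1% lower in C57BL/6J, and 7.71% and 4.47% in 129S6/SvEvTac. Of 6 smooth muscle markers 6 fell in C57BL/6J and 0 in 129S6/SvEvTac by edgeR, where none fell and 1 was higher at an unadjusted p below 0.05 (DESeq2 called 0 and limma voom 1). Their summed level was 38890 to 42140 CPM in the C57BL/6J controls, 12490 to 29530 in the C57BL/6J AngII libraries, 38080 to 41130 in the 129S6/SvEvTac controls and 36320 to 45760 in the 129S6/SvEvTac AngII libraries. All 6 macrophage markers rose in C57BL/6J, from 283.9 to 388.9 up to 875.6 to 1626 CPM in sum, and 0 of 6 did in 129S6/SvEvTac by edgeR, DESeq2 or limma voom or at an unadjusted p below 0.05 (148.5 to 271.3 against 190.7 to 362.2). Adipocyte markers were called higher for 7 of 8 genes in C57BL/6J, but for none did the AngII libraries stand clear of the controls. Their sum was 83.93 to 245.1 CPM in the C57BL/6J controls. In the C57BL/6J AngII libraries it was 134.9 to 3040 CPM, with the lowest value in replicate 3 and the highest in replicate 1. In 129S6/SvEvTac 0 of 8 were called by edgeR, with 111.6 to 525.4 CPM in controls and 243.7 to 1090 CPM with AngII. The summed fibroblast markers were 1552 to 1748 and 2136 to 3506 CPM in C57BL/6J control and AngII libraries, with 3 of 6 higher and 1 lower, and 1210 to 1747 and 1061 to 2073 CPM in 129S6/SvEvTac, with 1 of 6 higher. That 129S6/SvEvTac call, of Pi16, was lost in 12 of the 16 omissions of a library. The summed endothelial markers were 1072 to 1341 CPM in the C57BL/6J controls and 912 to 1174 with AngII, and 754.8 to 1210 and 840.4 to 2454 CPM in 129S6/SvEvTac. Of 8 endothelial markers 2 were called higher in each strain, Cdh5 and Kdr in C57BL/6J and Cdh5 and Erg in 129S6/SvEvTac, and none lower. The C57BL/6J count was near the share of all genes called higher in that strain. With 1 library left out these counts were 1 to 3 in C57BL/6J, where they fell to 1 except without C57BL/6J AngII replicate 3, 129S6/SvEvTac AngII replicate 1, 2 or 4 or 129S6/SvEvTac control replicate 4. They were 0 to 3 in 129S6/SvEvTac, lower without its AngII replicate 2 or 5 or its control replicate 1, 2 or 4. In C57BL/6J the 4 AngII values lay above all 4 controls for 2 of the 8 endothelial markers and below them for 2. The lower 2 were Pecam1 (515 to 658.2 CPM in controls, 280.8 to 463.9 with AngII) and Tek (84 to 99.58 and 43.05 to 82.53). Over all tested genes these shares were 19.2% and 16%. At an unadjusted p below 0.05 by edgeR, 1 endothelial marker was lower in C57BL/6J. No marker of these 5 lists was at 0 in any library, so the smooth muscle and endothelial markers of the labelled tissue were present throughout. In whole tissue, fewer cells of a type and less RNA per cell cannot be told apart, and the part of these shifts in the collagen results was not tested beyond the fits given below. Those fits use a score of adipocyte markers or of skeletal and cardiac muscle markers. None uses smooth muscle, macrophage, fibroblast or endothelial markers.

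With AngII most members rose in both strains. In C57BL/6J 6 of the 7 members were called higher and none lower, beside 21.8% of all tested genes called higher and 17.1% lower (38.9% in either direction), and the members' median log2 fold change was 0.93 against 0.01 for all genes. In 129S6/SvEvTac also 6 of 7 were called higher and none lower, beside 7.71% of all genes higher and 4.47% lower (12.2% in either direction), with a median of 1.21 against 0.0027. No member was lower in either strain at an unadjusted p below 0.05 by edgeR either. The member not called was Col18a1 in C57BL/6J and Col8a2 in 129S6/SvEvTac. In each strain the 6 called members had 4 AngII values above all 4 control values, which was so for 19.2% of all genes in C57BL/6J and 12.4% in 129S6/SvEvTac.

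**Figure D1:**
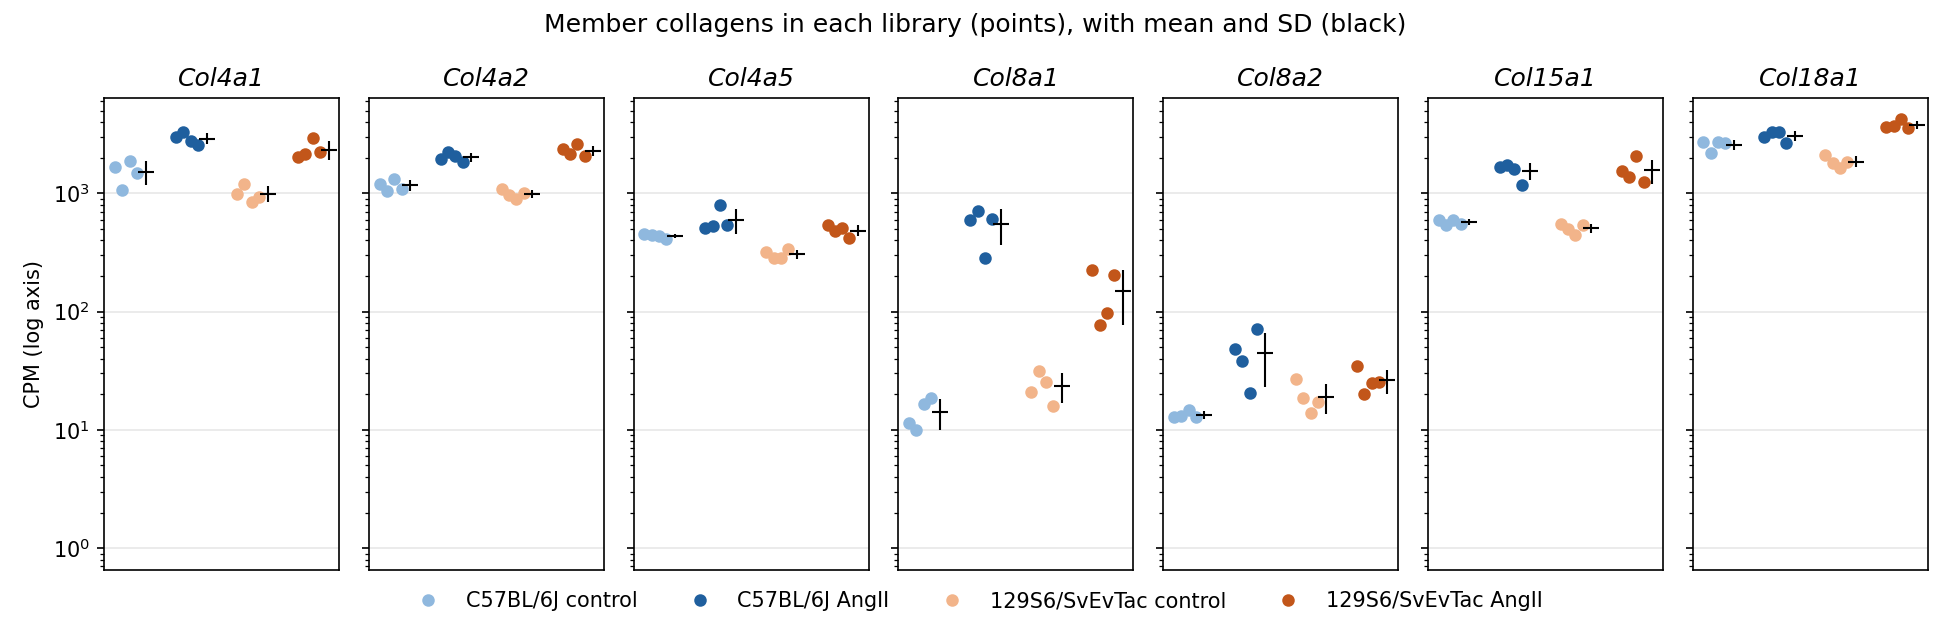
Level of each member collagen in CPM (log axis) in the 16 libraries, 4 points per group, with the group mean and SD in black. Col8a1 moves from 9.88 to 18.7 CPM in the C57BL/6J controls to 284.6 to 714.6 CPM with AngII, the widest shift shown, while the Col18a1 points of the C57BL/6J groups overlap.

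Col4a1 (ENSMUSG00000031502, chromosome 8, 11198423 to 11312826, minus strand) encodes the main chain of the type IV net found in nearly every basement membrane. Its level in the C57BL/6J controls was 1667, 1061, 1874 and 1472 CPM (1518 ± 346, SD, n = 4), and 2998, 3273, 2775 and 2554 CPM with AngII (2900 ± 308). The 129S6/SvEvTac controls held 986, 1205, 844 and 935 CPM (992 ± 154) and the AngII libraries 2010, 2147, 2948 and 2238 CPM (2336 ± 419). All AngII values lay above all control values of their strain. The log2 fold change was 0.93 ± 0.17 (SE) in C57BL/6J (adjusted p = 0.000524) and 1.24 ± 0.17 in 129S6/SvEvTac (adjusted p = 0.000348).

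Col4a2 (ENSMUSG00000031503, chromosome 8, 11312805 to 11449287, plus strand) encodes the partner chain that joins Col4a1 in the same triple helix. The C57BL/6J controls had 1206, 1055, 1318 and 1099 CPM (1170 ± 118) and the AngII libraries 1946, 2224, 2076 and 1839 CPM (2021 ± 166). In 129S6/SvEvTac the controls had 1097, 969, 895 and 1008 CPM (992 ± 84.2) and the AngII libraries 2354, 2134, 2598 and 2072 CPM (2290 ± 239). Both strains showed groups that did not overlap, with AngII the higher. Col4a2 rose by 0.79 ± 0.10 on the log2 scale in C57BL/6J (adjusted p = 3.21e-05) and by 1.21 ± 0.10 in 129S6/SvEvTac (adjusted p = 7.02e-06), and the difference of these effects, C57BL/6J minus 129S6/SvEvTac, missed the threshold (-0.42 ± 0.14, adjusted p = 0.0796, 95% interval -0.72 to -0.11).

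Col4a5 (ENSMUSG00000031274, chromosome X, 141475385 to 141689234) encodes a chain that enters the 2 other type IV nets, with Col4a3 and Col4a4 or with Col4a6. Control levels were 449.8, 445.2, 433.5 and 410.5 CPM in C57BL/6J (434.8 ± 17.6) and 318.4, 284.8, 281.7 and 338.4 CPM in 129S6/SvEvTac (305.8 ± 27.4). With AngII they were 505, 530.6, 799 and 538.4 CPM in C57BL/6J (593.2 ± 138) and 536.6, 479, 507.9 and 416.7 CPM in 129S6/SvEvTac (485 ± 51.3). C57BL/6J AngII replicate 3, at 799 CPM, stood above the other 3 libraries of its group, and even so no AngII value fell within the control range of its strain. Col4a5 had the smallest called AngII effects of the members, 0.45 ± 0.13 in C57BL/6J (adjusted p = 0.0128) and 0.67 ± 0.13 in 129S6/SvEvTac (adjusted p = 0.00416). Without C57BL/6J AngII replicate 3 the C57BL/6J effect was 0.28, still called, and with only the 2 groups compared in the fit it missed the threshold (adjusted p = 0.0515).

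The other type IV chains, Col4a3, Col4a4 and Col4a6, had lower mean CPM per kilobase than Col4a1, Col4a2 and Col4a5 in each group. The highest of them, Col4a6, had 44.3 and 36.9 CPM per kilobase in C57BL/6J control and AngII libraries and 33.7 and 39.9 in 129S6/SvEvTac. Col4a3 rose in 129S6/SvEvTac from 21.2 ± 3.89 to 68.5 ± 11.2 CPM (log2 fold change 1.69 ± 0.21, adjusted p = 0.00016) and Col4a4 from 44.4 ± 5.79 to 100.7 ± 13.4 CPM (1.18 ± 0.16, adjusted p = 0.00032). In C57BL/6J Col4a3 went from 34.8 ± 0.751 to 53 ± 20.6 CPM (0.61 ± 0.21, adjusted p = 0.0304) and Col4a4 from 54.7 ± 2.03 to 73.5 ± 20.5 CPM (0.43 ± 0.16, adjusted p = 0.0453). These C57BL/6J calls were lost for Col4a3 without C57BL/6J AngII replicate 3 or any C57BL/6J control, and for Col4a4 without those, C57BL/6J AngII replicate 5, 129S6/SvEvTac AngII replicate 1, 2 or 4 or 129S6/SvEvTac control replicate 2, 3 or 4 (log2 fold changes of 0.32 and 0.26 without AngII replicate 3). Both effects were larger in 129S6/SvEvTac (differences of -1.09 ± 0.29, adjusted p = 0.0299, and -0.75 ± 0.23, adjusted p = 0.0467), and these calls were lost in 12 and 13 of the 16 omissions of a library. Col4a6 passed the threshold in neither strain (-0.26, adjusted p = 0.224, and 0.25, adjusted p = 0.386). A share of 5.65% of the exon length of Col4a3 overlaps another annotated gene, so its counts are less certain.

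Col8a1 (ENSMUSG00000068196, chromosome 16, 57624258 to 57754737, minus strand) showed the largest AngII effect of the members in both strains. Controls were low, with 11.3, 9.88, 16.7 and 18.7 CPM in C57BL/6J (14.2 ± 4.21) and 21.1, 31.4, 25.5 and 15.9 CPM in 129S6/SvEvTac (23.5 ± 6.60). With AngII the C57BL/6J libraries held 592, 714.6, 284.6 and 608.7 CPM (550 ± 185) and the 129S6/SvEvTac libraries 223.8, 77.7, 98.2 and 202.2 CPM (150.5 ± 73.2). The lowest C57BL/6J AngII value, in replicate 3, was above the highest 129S6/SvEvTac AngII value, and both AngII groups were clear of their controls. Replicate 3 was also the C57BL/6J AngII library with the highest summed smooth muscle markers, 29530 CPM against 12490 to 17760 in the other 3.

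The rise was 5.28 ± 0.42 on the log2 scale in C57BL/6J, or 38.9-fold (adjusted p = 9.54e-07), and 2.68 ± 0.37 in 129S6/SvEvTac, or 6.41-fold (adjusted p = 0.000362). The effects differed by 2.60 ± 0.51 (adjusted p = 0.00685), larger in C57BL/6J. With the adipocyte marker score as a covariate the difference was 2.36 (adjusted p = 0.0234), and with a score of skeletal and cardiac muscle markers it was 2.59 (adjusted p = 0.0106). Without both C57BL/6J AngII replicate 1, the library highest in adipocyte markers, and 129S6/SvEvTac AngII replicate 5, the most deeply sequenced library, it was 2.77 (adjusted p = 0.0155). 129S6/SvEvTac AngII replicate 5 also held 338.1 CPM of summed skeletal and cardiac muscle markers, against 13.98 to 22.38 in the rest of its group. Its adipocyte sum was 1090 CPM, against 243.7 to 489.8. The next highest muscle sum of any library was 182.7 CPM, in 129S6/SvEvTac control replicate 3.

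Col8a2 (ENSMUSG00000056174, chromosome 4, 126286793 to 126314330, plus strand) rose in C57BL/6J from 12.8, 13.2, 14.8 and 12.8 CPM (13.4 ± 0.930) to 48.5, 37.9, 20.4 and 72 CPM (44.7 ± 21.6). As for Col8a1, replicate 3 was the lowest of the C57BL/6J AngII libraries. In 129S6/SvEvTac the controls held 26.7, 18.7, 14 and 17.1 CPM (19.1 ± 5.43) and the AngII libraries 34.7, 20.2, 24.7 and 25.2 CPM (26.2 ± 6.08), and the groups overlapped. The C57BL/6J effect was 1.74 ± 0.30 (adjusted p = 0.000328), and the 129S6/SvEvTac effect was not called (0.45 ± 0.29, adjusted p = 0.363).

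The difference of the Col8a2 effects was 1.29 ± 0.41 with a 95% interval of 0.41 to 2.16, and it missed the threshold (adjusted p = 0.0614), so the effect being called in C57BL/6J alone does not show that the strains differ. That difference passed the threshold without C57BL/6J AngII replicate 3 (1.56, adjusted p = 0.00527), with DESeq2 (adjusted p = 0.018) and with limma voom (adjusted p = 0.0187). With the adipocyte score as a covariate it was 0.74 (adjusted p = 0.286) and the Col8a2 effect in C57BL/6J was 1.01 (adjusted p = 0.0412).

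Col15a1 (ENSMUSG00000028339, chromosome 4, 47208161 to 47313167) encodes the type XV chain, which links basement membranes to nearby fibrils. Its controls were close together, at 600.2, 539.7, 596 and 545.4 CPM in C57BL/6J (570.3 ± 32.2) and 546.5, 499.5, 446.5 and 543.2 CPM in 129S6/SvEvTac (508.9 ± 46.8). AngII values were 1680, 1745, 1594 and 1176 CPM in C57BL/6J (1549 ± 256) and 1553, 1365, 2081 and 1243 CPM in 129S6/SvEvTac (1560 ± 370). The strains thus had nearly the same mean with and without AngII, and every AngII library stood above every control library of either strain. Col15a1 rose by 1.44 ± 0.15 in C57BL/6J (adjusted p = 6.87e-06) and by 1.62 ± 0.15 in 129S6/SvEvTac (adjusted p = 2.04e-05), and the difference of -0.18 ± 0.21 had a 95% interval of -0.63 to 0.28.

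Col18a1 (ENSMUSG00000001435, chromosome 10, 77052178 to 77166548, minus strand) encodes the type XVIII chain, the source of the fragment endostatin. The C57BL/6J controls held 2740, 2174, 2707 and 2674 CPM (2574 ± 268) and the AngII libraries 3019, 3296, 3271 and 2672 CPM (3064 ± 290.0), and these groups overlapped through the lowest AngII library. The 129S6/SvEvTac controls held 2110, 1822, 1630 and 1849 CPM (1853 ± 197) and the AngII libraries 3648, 3714, 4217 and 3574 CPM (3788 ± 292). Here the groups stood far apart, and all 4 of these AngII libraries were also above every C57BL/6J library.

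In C57BL/6J the Col18a1 effect was 0.25 ± 0.11 and was not called (adjusted p = 0.0748, 95% interval 0.02 to 0.48). It passed the threshold with DESeq2 (adjusted p = 0.035) and without C57BL/6J AngII replicate 5 (adjusted p = 0.0449). It was 0.16 without C57BL/6J control replicate 2 (adjusted p = 0.286) and by library size only (adjusted p = 0.2). In 129S6/SvEvTac Col18a1 rose by 1.03 ± 0.11, or 2.05-fold (adjusted p = 3.59e-05). The effects differed by -0.78 ± 0.15 (adjusted p = 0.00677), in the opposite direction to Col8a1. The gene has 2 annotated start sites, at 77166530 and 77113705, which make different isoforms, and the gene counts join them.

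**Figure D2:**
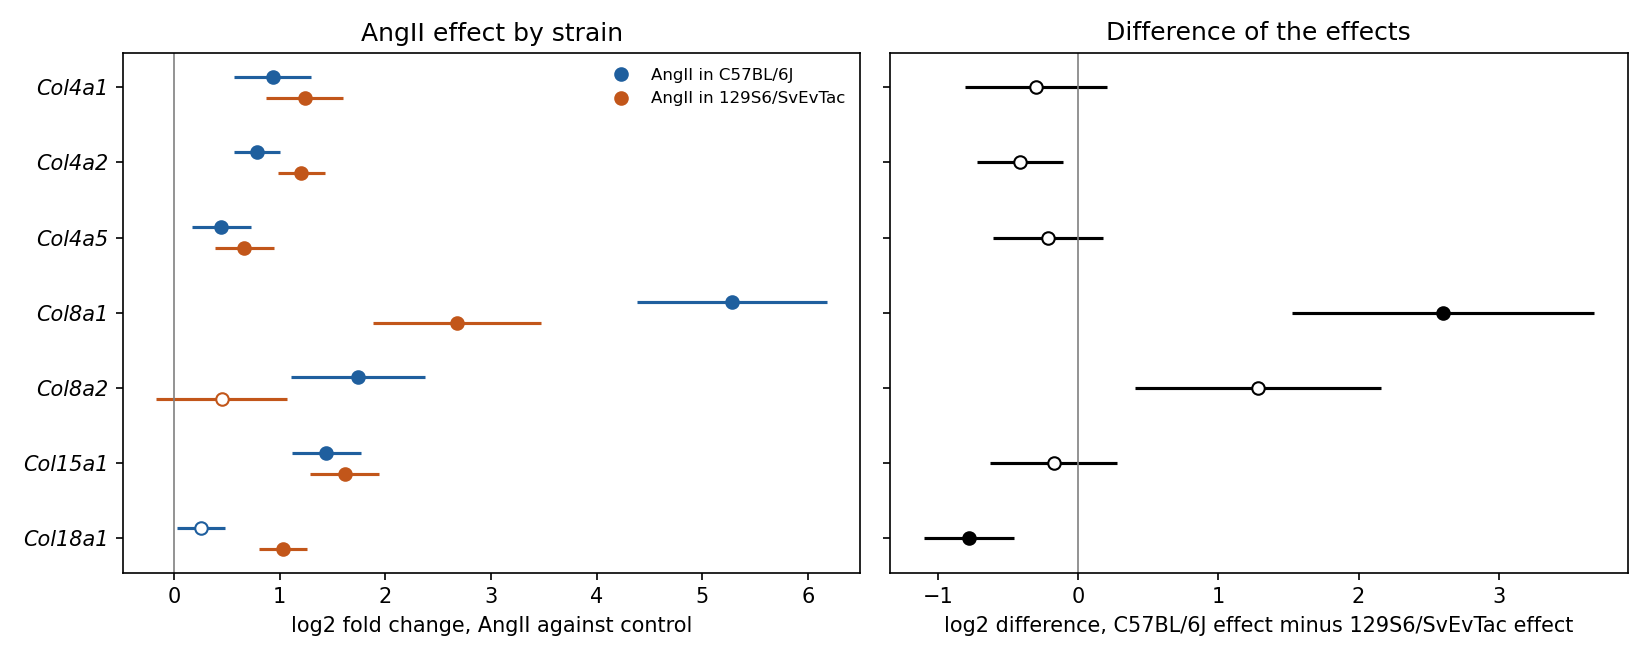
Log2 fold change with AngII in each strain (left) and the difference of the effects, C57BL/6J minus 129S6/SvEvTac (right), with 95% intervals as bars and open circles where the adjusted p was 0.05 or more. Col8a1 lies right of 0 in the right panel at 2.60 and Col18a1 left of 0 at -0.78, and the other 5 members are open circles there.

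Over the members, the AngII effect thus differed by strain for 2 of 7, with Col8a1 larger in C57BL/6J (5.34% of all genes were called in this direction) and Col18a1 larger in 129S6/SvEvTac (4.62%, with 9.96% in either direction). These calls held when any of the 16 libraries was left out, with adjusted p values up to 0.0234 for Col8a1 and 0.0184 for Col18a1 over all alternatives tried. For the core chains Col4a1 and Col4a2 the difference was negative, as it was for Col18a1, but not called (Col4a1 -0.30 ± 0.24, adjusted p = 0.47, 95% interval -0.81 to 0.21). The Col4a5 difference was -0.22 ± 0.18 (adjusted p = 0.505, 95% interval -0.61 to 0.17). With DESeq2 and with limma voom, Col4a2 and Col8a2 passed as well, giving 4 called members.

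Without AngII the strains differed for 3 of the 7 members, all higher in C57BL/6J, beside 5.35% of all genes called higher there, 5.06% lower and 10.4% in either direction. Controls are the same libraries as in the AngII comparisons above, so these values are not independent of them. Col18a1 was higher in C57BL/6J controls by 0.47 ± 0.11 (adjusted p = 0.00872), Col4a5 by 0.51 ± 0.13 (adjusted p = 0.0195) and Col4a1 by 0.61 ± 0.17 (adjusted p = 0.0294). The control libraries of the strains did not overlap for Col18a1 and Col4a5, and a gap in that direction was seen for 11.3% of all genes. For Col4a1 they did overlap, because C57BL/6J control replicate 2, at 1061 CPM, lay below the highest 129S6/SvEvTac control at 1205 CPM.

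The Col18a1 strain call held in every omission of a library. That of Col4a1 was lost without C57BL/6J control replicate 1, 3 or 5 or 129S6/SvEvTac control replicate 1, 3 or 4 (adjusted p up to 0.104). That of Col4a5 was lost without 129S6/SvEvTac control replicate 2 or 3 (adjusted p = 0.0593 and 0.0616) and with the adipocyte covariate (adjusted p = 0.0605). Without 129S6/SvEvTac control replicate 3 only 1 member, Col18a1, was called. The control differences of Col4a2 (0.24 ± 0.10), Col15a1 (0.16 ± 0.15), Col8a1 (-0.73 ± 0.36) and Col8a2 (-0.51 ± 0.29) were not called, with adjusted p values from 0.173 to 0.596.

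With AngII, 1 member was higher in C57BL/6J and 1 was lower, beside 16.8% and 14.6% of all genes (31.3% in either direction). Col8a1 was 3.65-fold higher in the C57BL/6J AngII libraries (log2 difference 1.87 ± 0.36, adjusted p = 0.00109), and this call held in every omission. Col18a1 was lower by 0.31 ± 0.11 on the log2 scale (adjusted p = 0.0401), the reverse of its order in the controls. The Col18a1 call was lost in 10 of the 16 omissions, holding only without C57BL/6J AngII replicate 2 or 3, C57BL/6J control replicate 2 or 5, or 129S6/SvEvTac control replicate 1 or 3. Its difference was -0.23 without 129S6/SvEvTac AngII replicate 4 (adjusted p = 0.139). Col8a2, at 0.77 ± 0.29 (adjusted p = 0.0556), passed the threshold in 6 of 27 alternatives, which were DESeq2, limma voom, library size only and omission of C57BL/6J AngII replicate 3 (1.04, adjusted p = 0.00335), 129S6/SvEvTac AngII replicate 1 or 129S6/SvEvTac control replicate 1. It was 0.45 to 1.04 with a library left out. Col4a5, at 0.29 ± 0.13 (adjusted p = 0.105), passed in 3 of 27, by library size only, with the adipocyte covariate and without C57BL/6J AngII replicate 1 (0.38, adjusted p = 0.0384). Col4a1, Col4a2 and Col15a1 were not called, and the Col15a1 difference was -0.01 ± 0.15 with a 95% interval of -0.33 to 0.31.

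The order of the levels within each group was read in CPM per kilobase of exon. Exon lengths are those of GENCODE M21. The Col8a1 entry there has another version than in the count table, so its per-kilobase values are less certain. Col18a1 was highest in all 4 groups, with means of 366.5 and 436.5 CPM per kilobase in C57BL/6J control and AngII libraries and 263.9 and 539.5 in 129S6/SvEvTac. In the C57BL/6J controls Col4a1 (203.5) and Col4a2 (176.7) came next with overlapping ranges, then Col15a1 (89.8), Col4a5 (64.7), Col8a2 (2.98) and Col8a1 (1.81). With AngII, Col8a1 in C57BL/6J reached a mean of 70.2 CPM per kilobase (36.3 to 91.2), overlapping the range of Col4a5 (mean 88.3, 75.2 to 118.9), and passed Col8a2 (9.96). In the 129S6/SvEvTac controls Col4a2 (149.9) and Col4a1 (132.9) overlapped, as did Col8a2 (4.26) and Col8a1 (2.998). In the 129S6/SvEvTac AngII libraries Col4a2 (345.9), Col4a1 (312.9) and Col15a1 (245.8) were neighbours whose ranges all overlapped each other, and Col8a1 (19.2) again lay above Col8a2 (5.84).

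Chains that assemble together or are close relatives can be compared by their ratio within a library, per kilobase. The Col4a1 to Col4a2 ratio averaged 1.14 in the C57BL/6J controls (range 0.892 to 1.261) and 1.27 with AngII (1.185 to 1.37), against 0.890 (0.798 to 1.10) and 0.903 (0.757 to 1.01) in 129S6/SvEvTac. AngII libraries of the strains did not overlap in this ratio, while control libraries did. The Col8a1 to Col8a2 ratio was below or near 1 in controls, at 0.605 (0.430 to 0.835) in C57BL/6J and 0.749 (0.452 to 1.05) in 129S6/SvEvTac. With AngII it was 7.66 (4.85 to 10.8) and 3.20 (2.20 to 4.61), so that the mix of type VIII transcripts moved toward Col8a1 in all 8 AngII libraries. Where this ratio stands against 1 depends on the less certain Col8a1 exon length, and its fold change with AngII does not. The Col15a1 to Col18a1 ratio was 0.247 (0.226 to 0.275) in C57BL/6J controls and 0.557 (0.487 to 0.615) with AngII, and 0.304 (0.286 to 0.325) and 0.452 (0.385 to 0.546) in 129S6/SvEvTac. The Col4a5 to Col4a1 ratio averaged 0.333 and 0.230 in C57BL/6J and 0.349 and 0.236 in 129S6/SvEvTac, with ranges that overlapped between control and AngII. These ratios come from the same counts as the tests above and are given as a description.

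**Figure D3:**
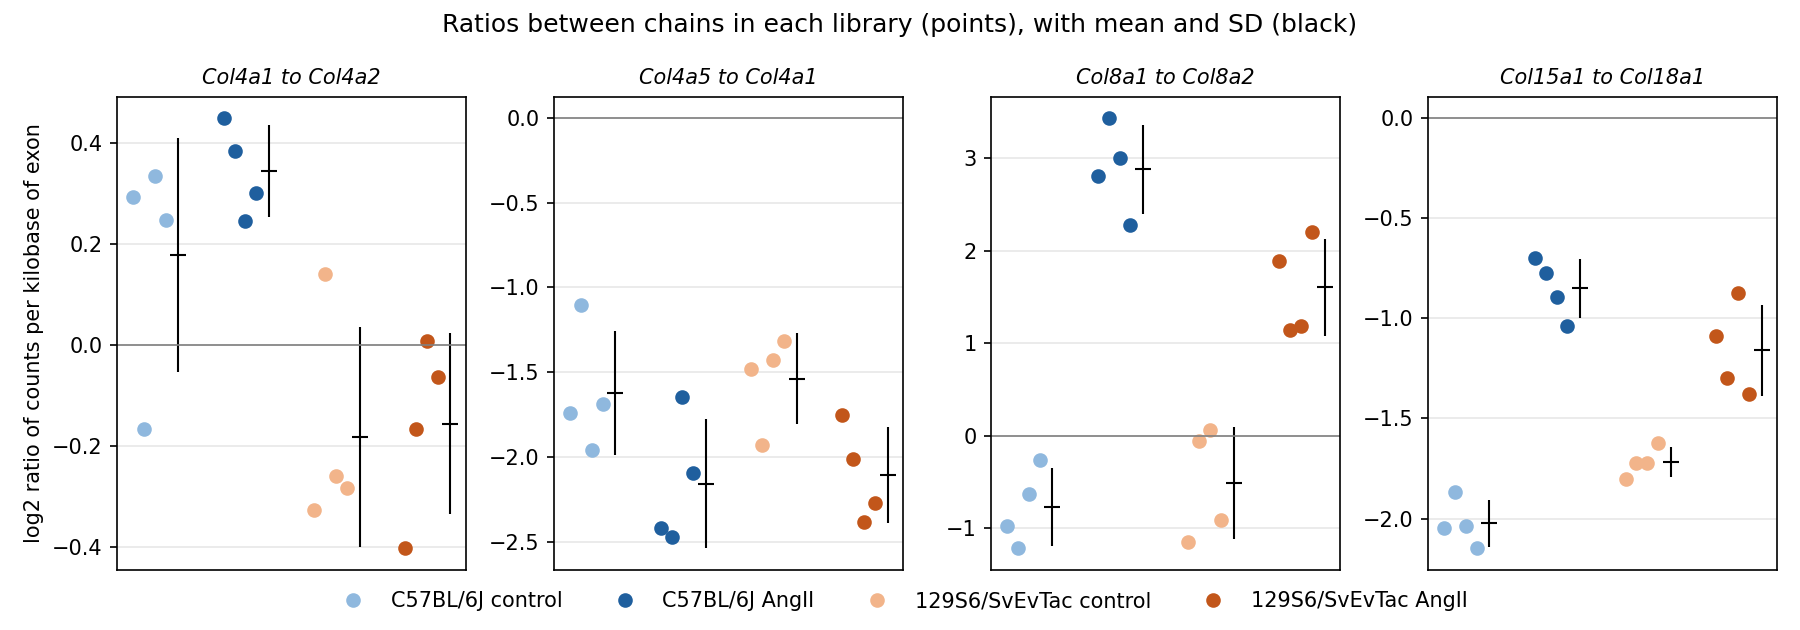
Log2 ratio of counts per kilobase between 2 chains in each library, by group, with mean and SD in black; 0 means equal levels. The Col8a1 to Col8a2 ratio lies at 2.20 or more on the linear scale in all AngII libraries and at 1.05 or less in all controls.

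Across the 16 libraries the members' log2 CPM followed each other to different degrees, as a description in which shared group effects enter. The closest pair was Col4a2 and Col15a1, with a Pearson r of 0.979, and 0.821 after group means were removed. Col4a2 and Col18a1 reached 0.929 (0.839 within groups), Col4a1 and Col4a2 0.905 (0.686), and Col8a1 and Col8a2 0.860 (0.521). Col8a2 and Col18a1 were the least alike at 0.374. Col4a5 and Col8a1, at 0.621 over all libraries, had -0.613 within groups, where C57BL/6J AngII replicate 3 was high in Col4a5 and low in Col8a1.

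Among 10665 protein-coding genes, the nearest in pattern to Col8a1 were Cthrc1 (r = 0.990), Ppic (0.979) and Adam12 (0.978), and to Col8a2 Tiam1 (0.964), Clec11a (0.957) and Ptgfrn (0.947). Among the genes nearest to Col15a1 were Postn, the matrix protein periostin (0.983), and Layn (0.972). Those near Col4a2 included Fn1, which encodes fibronectin (0.968), and Plpp1 (0.963). Col4a1 was nearest to Emc3 (0.978), Emp3 (0.954) and Dio2 (0.948), and Col4a5 to Tmem165 (0.918), Mgat5 (0.916) and Epdr1 (0.914). The genes nearest to Col18a1 were Qsox1 (0.943), Adamtsl2 (0.933) and Adamts9 (0.932). Shared group effects enter these values too. After group means were removed, they ranged from 0.351 (Fn1 with Col4a2) to 0.919 (Emc3 with Col4a1).

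Other genes of the basement membrane are given by list, and their counts stand beside shares over all tested genes of 21.8% higher and 17.1% lower in C57BL/6J and 7.71% higher and 4.47% lower in 129S6/SvEvTac. For differences of the AngII effects, C57BL/6J minus 129S6/SvEvTac, 5.34% of all tested genes were called positive and 4.62% negative. Together these were 9.96%. Of 11 laminin chain genes 10 were tested, and in C57BL/6J 5 rose and 2 fell. Lamb1 rose from 10.8 ± 1.99 to 77.2 ± 35.6 CPM (2.84 ± 0.30, adjusted p = 6.8e-06) and Lamc1, the gamma chain of most laminins, from 349.8 ± 27.3 to 695.7 ± 105 CPM (0.99, adjusted p = 4.47e-06). In 129S6/SvEvTac 2 of the 10 rose, Lamc1 by 0.66 (adjusted p = 0.000634) and Lamb3 by 1.63 (adjusted p = 0.036), the latter not called without any 1 of the 8 libraries of that strain (adjusted p up to 0.121). The Lamb1 effect was larger in C57BL/6J by 2.24 ± 0.40 (adjusted p = 0.00449). That of Lamc3 was lower there by 1.91 (log2 difference -1.91, adjusted p = 0.0245), a call lost without C57BL/6J control replicate 3 or 129S6/SvEvTac AngII or control replicate 2, and 6.27% of the Lamc3 exon length overlaps another gene. Mean Lamc3 went from 107.3 to 38.2 CPM in C57BL/6J and from 40.1 to 53.6 CPM in 129S6/SvEvTac.

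Of 16 genes for nidogens, proteoglycans and other linkers 15 were tested, with 7 higher and 1 lower in C57BL/6J and 9 higher in 129S6/SvEvTac. Nid1, which ties laminin to type IV collagen, rose by 1.68 (adjusted p = 1.04e-06) and 1.16 (adjusted p = 9.02e-05) in the respective strains. Pxdn, the peroxidase that cross-links type IV collagen, rose by 0.99 (adjusted p = 4.64e-06) and 0.72 (adjusted p = 0.000348). Nid2 rose by 2.39 in C57BL/6J (adjusted p = 6.41e-07), more than in 129S6/SvEvTac (difference 1.67 ± 0.24, adjusted p = 0.00139), although 8.45% of its exon length overlaps another gene. Sparc, a collagen-binding glycoprotein, rose in both strains, by 1.54 in C57BL/6J (adjusted p = 5.19e-06), from 3620 ± 492 to 10490 ± 1518 CPM, and by 1.59 in 129S6/SvEvTac (adjusted p = 2.43e-05), from 3439 ± 769 to 10320 ± 846 CPM. Ntn1 and Smoc1 had lower effects in C57BL/6J (differences of -0.59, adjusted p = 0.0245, and -0.65, adjusted p = 0.0399), calls lost in 6 and 14 of the 16 omissions. Mean Ntn1 went from 638.1 to 413.2 CPM in C57BL/6J and from 599.4 to 584.3 CPM in 129S6/SvEvTac. Mean Smoc1 went from 672.8 to 543.8 CPM and from 692.5 to 878.3 CPM. The count of 3 called differences in this list was 7 without C57BL/6J AngII replicate 3, and 1 without C57BL/6J control replicate 1 or 3, 129S6/SvEvTac AngII replicate 4, or 129S6/SvEvTac control replicate 1 or 2.

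**Figure D4:**
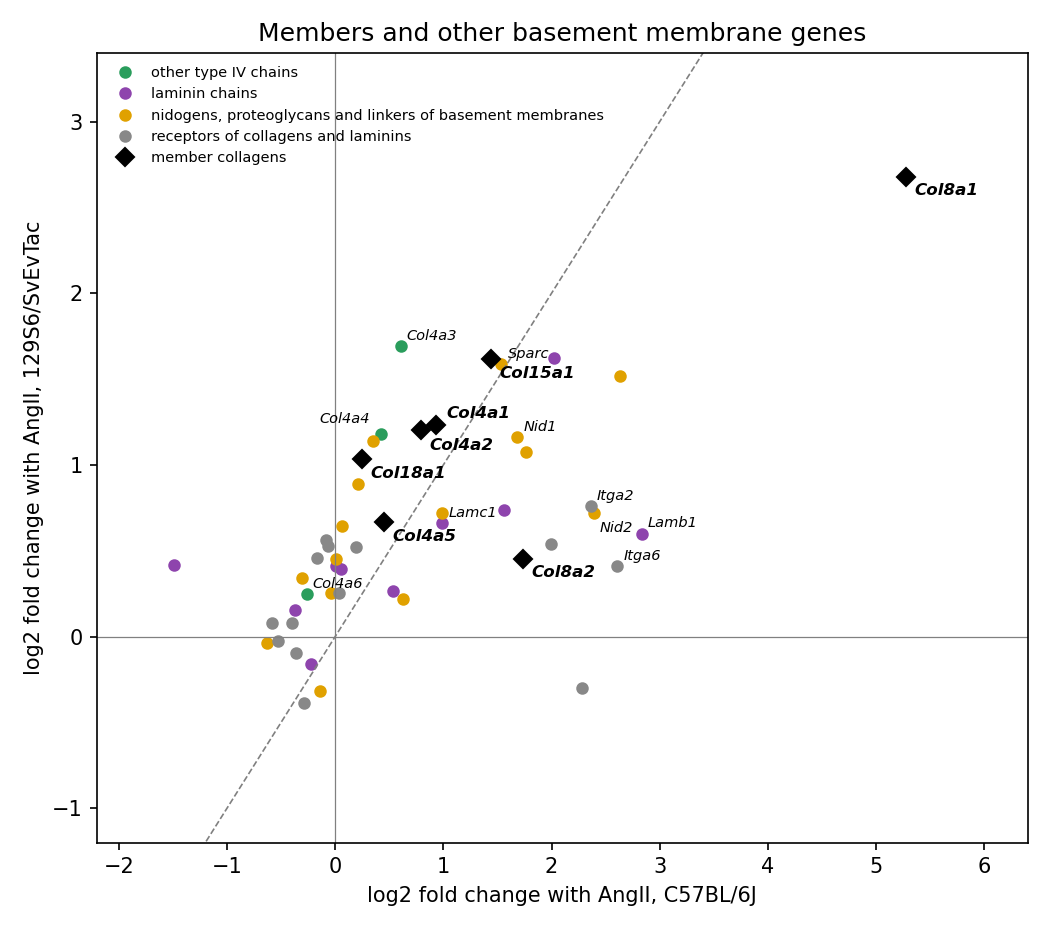
Log2 fold change with AngII in C57BL/6J (horizontal) against 129S6/SvEvTac (vertical) for the 7 members (black diamonds) and the tested genes of 4 related lists (coloured circles), with a dashed line where the effects are equal. Col8a1 lies at 5.28 and 2.68, far below the line, and Col18a1 at 0.25 and 1.03, above it.

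Of the receptors of collagens and laminins 4 of 14 rose and 3 fell in C57BL/6J, shares near those of all tested genes (21.8% and 17.1%). Among them were Itga2, the alpha subunit of a collagen-binding integrin, up by 2.36 (adjusted p = 1.22e-06) and Itga6, of a laminin-binding integrin, by 2.61 (adjusted p = 5.26e-05). Itga11, of another collagen-binding integrin, rose by 1.99 (adjusted p = 0.000202). In 129S6/SvEvTac 5 of 14 rose, among them Ddr1, a collagen receptor with kinase activity, by 0.46 (adjusted p = 0.0069), Itga2 by 0.76 (adjusted p = 0.0188) and Itga3 by 0.56 (adjusted p = 0.0258). That count was 1 to 3 without any 1 of the 4 C57BL/6J controls, the 4 129S6/SvEvTac controls or 129S6/SvEvTac AngII replicate 1, 2 or 4. Effects were larger in C57BL/6J for Itga2 (1.61, adjusted p = 0.0035) and Adgrg6, an adhesion receptor that binds type IV collagen (2.58, adjusted p = 0.00954), and lower for Ddr1 (-0.62, adjusted p = 0.0126). Mean Ddr1 went from 113 to 100.9 CPM in C57BL/6J. The 5 called differences in this list became 9 without C57BL/6J AngII replicate 3.

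Genes that hydroxylate, fold and export collagen chains rose with the members, 15 of 18 in C57BL/6J and 9 of 18 in 129S6/SvEvTac, with none lower, also at an unadjusted p below 0.05. Plod2, a lysyl hydroxylase, rose from 110.3 ± 11.2 to 340.4 ± 63.6 CPM in C57BL/6J (1.63 ± 0.12, adjusted p = 6.41e-07) and from 95.7 ± 2.62 to 227 ± 26.5 CPM in 129S6/SvEvTac (1.25 ± 0.12, adjusted p = 2.15e-05). P4ha3, a prolyl hydroxylase subunit, rose by 4.58 in C57BL/6J (adjusted p = 1.44e-05) and by 2.77 in 129S6/SvEvTac (adjusted p = 0.00198), and P4ha2, of the same family, by 0.87 in each strain (adjusted p = 4.76e-05 and 0.000297). None of the 18 passed the test of a strain difference in its AngII effect by edgeR, where 6 had an unadjusted p below 0.05, while 3 passed by DESeq2, 3 by limma voom and up to 5 with 1 library left out (5 without C57BL/6J AngII replicate 3).

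Among 15 tested genes for proteases that cut these collagens, and their inhibitors, 12 rose and 1 fell in C57BL/6J, and 5 rose and 1 fell in 129S6/SvEvTac (3 called in all without 129S6/SvEvTac AngII replicate 1). Mmp14, a membrane-bound collagenase, rose from 85.5 ± 12.7 to 320.3 ± 30.5 CPM in C57BL/6J (1.91 ± 0.14, adjusted p = 6.41e-07). It went from 59.3 ± 10.6 to 76.3 ± 10.7 CPM in 129S6/SvEvTac (0.36, adjusted p = 0.1), with a difference of 1.54 ± 0.19 (adjusted p = 0.000795). Timp1, a secreted inhibitor of metalloproteinases, rose by 4.18 and 1.91 (adjusted p = 1.04e-06 and 0.00113). Ctss, the gene of cathepsin S and a gene macrophages express strongly, had an effect 2.43 larger in C57BL/6J (adjusted p = 0.00517). A link of this effect to the macrophage markers was not tested. Effects were larger in C57BL/6J for 6 genes of this list and larger in 129S6/SvEvTac for none (2 at an unadjusted p below 0.05, by edgeR). Over all tested genes 5.34% and 4.62% were called in these directions.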

How the data were processed

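Whole-aorta RNA of the 4 groups was sequenced in 16 libraries. Per the labels' protocols, HISAT2 aligned the reads to GRCm38 (mm10) and StringTie estimated abundance on Gencode models. The deposited table holds expected counts, whole numbers in every cell. The submitters' processing notes list DESeq2 1.26.0 and R 3.6.2 with no role. The Gencode release, the step from abundance to counts and any use of strand are not stated in the sources read, so overlapping genes are less certain. GENCODE M21 named 52489 of 52636 genes. Totals were 42116120 to 121573945 counts, and the others lay at or below 61381134. Each pair of replicates differed beyond counting noise (chi-square per degree of freedom 37.6 or more).

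edgeR 4.0.16 in R 4.3.3 (filterByExpr, minimum count 10, TMM, robust quasi-likelihood fit, 1 mean per group) tested 17125 genes over all 16 libraries, after being tested on simulated data. CPM use the TMM-adjusted totals and log2 CPM a prior count of 2. Alternatives were RLE or no scaling factors, no filter, 1 CPM in 4 samples, DESeq2 1.42.0, limma 3.58.1 voom with sample weights, a fit of the compared groups alone, a replicate block, marker score covariates and leaving libraries out. Motifs were searched in RefSeq promoters of GRCm38.p6.

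The members, the 14 gene lists and the tests were chosen with earlier results of these data known, so no list is independent evidence. All members and type IV chains are named, and up to 3 called genes per other list and comparison by smallest p. For each member the 3 genes of highest correlation are named, among protein-coding genes averaging 5 CPM or more. Some genes that this rule names are not reported here. Counts of changed genes stand without a list test.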

Additional observations from a re-analysis of the deposited data

Results flagged for a closer look

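In 28 groups of 4 libraries (7 members in 4 groups), a library was marked where its gap to the nearest other library, divided by the range of the group, was above Dixon's 95% critical value. Chance marks about 1 in 20 such groups. Col4a5 in C57BL/6J AngII replicate 3 had a value of 0.86 (799 CPM against 505 to 538.4 in the other 3). Col18a1 in C57BL/6J control replicate 2 had 0.895 (2174 CPM against 2674 to 2740 in the other 3), and that library was also the lowest of its group for Col4a1 and Col4a2.

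The AngII effects of the strains differed, by the test of the difference itself, for Col8a1 by 2.60 on the log2 scale (larger in C57BL/6J, with groups clear of each other in both strains) and for Col18a1 by -0.78 (larger in 129S6/SvEvTac, where all 4 AngII libraries were above all 4 controls).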

How the results depend on the processing

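Over 938 values of members under alternatives, 882 kept their direction and their side of the threshold, 26 lost and 18 gained a call, and 12 changed sign, all of them uncalled Col15a1 values near 0. With AngII, called members numbered 5 to 7 in C57BL/6J and 6 in 129S6/SvEvTac under every alternative tried. For the difference of effects, 2 members were called, 4 by DESeq2 or limma voom, and 2 to 3 with a library left out. Between control strains 3 were called, and 1 to 3 with a library left out. Between AngII strains 2 were called, 1 with no filter, with only the groups compared, with the replicate block or without both C57BL/6J AngII replicate 1 and 129S6/SvEvTac AngII replicate 5, and 1 to 3 with a library left out. The cause was not tested. The Col15a1 strain difference with AngII was 0.0474 by library size only, 0.0032 with no filter, 0.0949 with the replicate block and -0.0908 to 0.175 with a library left out, and the difference of its AngII effects was -0.25 to 0.0153 so (highest without 129S6/SvEvTac AngII replicate 4).

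Same-numbered libraries had deviation correlations of -0.06 to 0.145 within a strain and -0.06 to 0.146 across strains, and no pairing was assumed. Low correlations over all genes cannot exclude a batch shared by replicate number. The replicate block ended the calls of Col4a1 between control strains (0.67, adjusted p = 0.064) and Col18a1 between AngII strains (-0.28, adjusted p = 0.116) and called the Col8a2 difference of effects (1.31, adjusted p = 0.0471), with no other change of a member's call.

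Counts over all genes moved by more than 1.5 times as follows. AngII in 129S6/SvEvTac gave 2087 calls and 3324 by limma voom. The difference gave 1706 calls, 2685 by DESeq2, 2670 by limma voom, 1103 with the adipocyte covariate, 2990 without C57BL/6J AngII replicate 3, 1076 without 129S6/SvEvTac AngII replicate 4, 1039 without 129S6/SvEvTac control replicate 2 and 1049 without both libraries named above. Strains in control gave 1783, 3209 by limma voom and 2772 with only the groups compared. By library size only, the share of calls that were higher went from 56.1% to 45.4% (AngII in C57BL/6J), 63.3% to 25.2% (AngII in 129S6/SvEvTac) and 53.6% to 65.2% (difference), and the median effect over tested genes in 129S6/SvEvTac went (log2) from 0.0027 to -0.157, while every called member kept its direction.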
